A study of Arabidopsis thaliana with 12 samples.

Results

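The cytochrome P450 genes of Arabidopsis were followed through H3K27me3 ChIP-seq of 4 genotypes. They were taken as the TAIR10 protein-coding genes whose annotated symbol is CYP followed by a family number, a subfamily letter and a gene number. Another 4 such genes, which belong to the thalianol and marneral clusters, were left out. This gave 215 genes in 40 families out of 37899 annotated genes, of which 27444 are protein-coding. P450 genes that TAIR10 lists under another symbol, such as C4H, DWF4, CPD, PAD3 and AOS, are not among them.

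Cytochrome P450s are heme enzymes, most of which insert 1 oxygen atom from O2 into a small molecule and take electrons from a reductase in the endoplasmic reticulum. In plants they make and inactivate hormones, lay down cutin, suberin and lignin, and build defence compounds such as glucosinolates, and many arose by tandem duplication. H3K27me3, trimethylation of lysine 27 of histone H3, is the mark that Polycomb Repressive Complex 2 (PRC2) places on genes held silent. CURLY LEAF (CLF) is the main PRC2 methyltransferase after germination, SWINGER is its close homolog, and BRAHMA (BRM) is the ATPase of a SWI/SNF chromatin remodelling complex.

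The seedlings were 14 days old and were wild type (Col), *brm-1*, *clf-29* or *brm-1 clf-29*. Both alleles are T-DNA insertions in the Col background, *brm-1* in *BRM* and *clf-29* in *CLF*. Each genotype had 2 ChIP libraries, described as independent biological replicates, and 1 input library of chromatin sequenced without antibody. Reads of H3K27me3 at *BRM* or *CLF* do not check these labels, since an insertion leaves most of the gene in place. Whole seedlings were used, so a larger share of nuclei with the mark and more mark per nucleus cannot be told apart.

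Reads that shared position and strand were reduced to 1, which left 2112103 to 3654258 reads in the ChIP libraries and 3421391 to 4291138 in the inputs. The level of a gene is given as reads per 1000000 kept reads and per kb of gene (RPM per kb). Inputs gave 4.08 to 11.1 RPM per kb on every P450 gene, with a median of 7.43, so uniquely mapped reads reached all of them, tandem copies included. RPM shows how the mark was distributed and not its total amount. Reads in the enriched regions of Col made up 59.2% and 59.3% of the Col libraries, 71.4% and 74.2% of *brm-1*, 75.8% and 76.6% of *clf-29*, 75.1% and 76.1% of *brm-1 clf-29*, and 16.3% to 16.9% of the inputs. Col thus had a lower share of reads in regions than each mutant library. The part of this difference in the changes below was not tested, and calls are also given after TMM scaling on the genes in Col regions, which sets the typical marked gene equal between libraries.

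A larger share of P450 genes than of other genes lay in H3K27me3 regions. Regions were called against the input and had to be present in both replicates, and a gene counted at an overlap of at least 1 bp. In Col, 114 of the 215 P450 genes (53.0%) overlapped a region, as did 25.4% of all protein-coding genes and 22.5% of the 11080 other protein-coding genes of a similar length, 1600 to 3000 bp. The count was 119 (55.3%) in *brm-1*, 117 (54.4%) in *clf-29* and 122 (56.7%) in *brm-1 clf-29*, and the corresponding shares of the genes of similar length were 23.6%, 22.5% and 23.4%. No test was made of these shares. The median P450 gene in a Col region was covered over 96.9% of its length and had 29.4 RPM per kb, and the median of the 85 P450 genes in no region of any genotype was 3.13.

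A total of 106 P450 genes were in regions of all 4 genotypes and 85 in none, which leaves 24 whose region depended on the genotype. Of these, 5 were in regions of Col and *brm-1* alone and lost theirs in both genotypes with *clf-29*, namely *CYP702A1*, *CYP71A28*, *CYP71B11*, *CYP71B38* and *CYP87A2*. Conversely, 4 were in regions only where *clf-29* was present, *CYP705A8*, *CYP706A7*, *CYP81D2* and *CYP89A5*. Another 4 had a region in the double mutant alone, *CYP76C1*, *CYP81G1*, *CYP81H1* and *CYP89A9*. *CYP705A9*, *CYP709B2* and *CYP76C2* had one in *brm-1* and *brm-1 clf-29*, *CYP76C4*, *CYP81D1* and *CYP84A4* in every mutant but not in Col, and *CYP71B9* and *CYP96A2* in *clf-29* alone. *CYP71B12*, *CYP71B4* and *CYP71B8* each missed a region in 1 genotype, *clf-29*, *brm-1 clf-29* and *brm-1*, respectively. Several of these genes lie near the detection limit. *CYP71B9* measured 9.82 and 9.76 RPM per kb in Col and 13.0 and 12.9 in *clf-29*, which are close levels on either side of the region threshold.

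Marking differed between families. Of the 40 families, 12 had every member in a Col region, 11 had none and 17 were divided, and 13 families have a single member. All 7 CYP79 genes, which make aldoximes from amino acids, all 6 CYP702 genes and all 5 CYP82 genes were in Col regions, with family medians of 39.4, 36.7 and 42.5 RPM per kb. In the CYP78 family, whose founding member sets organ size, 5 of 6 genes were marked, and in the CYP94 family, which oxidises fatty acids and jasmonoyl-isoleucine, 5 of 6. The largest family, CYP71, was divided, with 27 of 47 genes in Col regions, and so were CYP705 (8 of 22), CYP81 (6 of 16), CYP96 (7 of 12) and CYP86 (6 of 10). At the other end stood CYP72 with 1 of 9, and CYP704 and CYP98, each with 0 of 3. More members of CYP81 and CYP76 were in regions in the double mutant, 10 and 7, than in Col, 6 and 4. By clan, the deep branches of the P450 tree, Col regions held 71 of 138 genes of clan 71, 18 of 31 of clan 86, 15 of 19 of clan 85, 7 of 18 of clan 72 and 3 of 4 of clan 710.

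**Figure D1:**
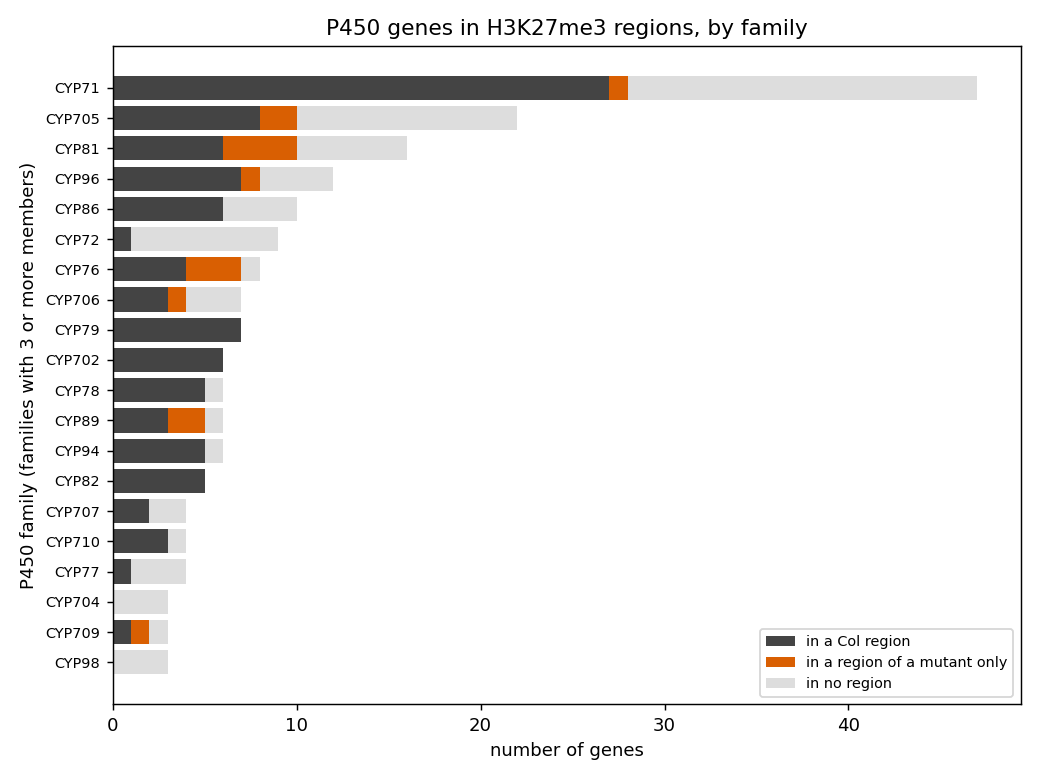
P450 families with 3 or more members, with the number of genes on the horizontal axis. Each bar divides a family into genes in a Col region (dark), in a region of a mutant only (orange) and in no region (grey), with all 7 CYP79 genes in Col regions, 1 of 9 CYP72 genes, and 4 of 16 CYP81 genes in a region of a mutant only.

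The most heavily marked P450 genes of Col were spread over several families. *CYP71B21* had 64.0 and 67.2 RPM per kb in the replicates of Col and *CYP78A5* (KLUH, a promoter of organ growth) had 68.9 and 62.2. *CYP86A1*, a fatty acid ω-hydroxylase of root suberin, followed at 62.4 and 60.6. These 3 replicate ranges touch or lie within a few RPM per kb of each other, so their order is not resolved. *CYP71A26*, *CYP716A2*, *CYP76C5*, *CYP705A1*, *CYP71A23*, *CYP82C2* and *CYP78A7* completed the 10 highest, with means of 56.6, 53.8, 52.9, 52.8, 52.3, 51.9 and 50.6 RPM per kb, and *CYP702A3* came next at 49.98. In each of the other 3 genotypes *CYP86A1* was the highest P450 gene.

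The sequence upstream of the genes was searched for a pair of short motifs tied to PRC2 in Arabidopsis, the telobox AAACCCTA, bound by telomere repeat binding factors, and GAGAGAGA, of the kind bound by BASIC PENTACYSTEINE proteins. Both strands of the 250 bases before the annotated start were read from the TAIR10.1 genome. The telobox was found before 6 of the 130 P450 genes in a region of any genotype (4.62%) and 2 of the 85 in none (2.35%), against 4.49% of all 27443 protein-coding genes with such a window. Of the 8089 other protein-coding genes in a region of any genotype, 5.75% had it. GAGAGAGA was found before 4 of 130 (3.08%) and 3 of 85 (3.53%), against 4.91% of all and 5.18% of those 8089. A match is only a string of letters, and its absence says nothing of binding. The 6 telobox windows of marked genes, 3 of them from the CYP71A subfamily, are shown. They are 40 bases on the strand of the gene, with the telobox (or its reverse complement TAGGGTTT in *CYP79C2*) in capitals:
CYP716A2 (chr5:14213326-14213365, minus strand, TAIR10.1): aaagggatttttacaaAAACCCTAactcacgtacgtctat
CYP71A12 (chr2:13101426-13101465, minus strand, TAIR10.1): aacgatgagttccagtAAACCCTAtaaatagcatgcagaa
CYP71A18 (chr1:3909546-3909585, minus strand, TAIR10.1): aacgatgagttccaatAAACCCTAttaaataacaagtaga
CYP71A27 (chr4:10934251-10934290, minus strand, TAIR10.1): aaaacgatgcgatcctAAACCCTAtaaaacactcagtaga
CYP79C2 (chr1:21605502-21605541, plus strand, TAIR10.1): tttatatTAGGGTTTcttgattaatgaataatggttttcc
CYP86A8 (chr2:18914924-18914963, minus strand, TAIR10.1): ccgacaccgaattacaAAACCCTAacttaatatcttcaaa

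The 5 sense windows are aligned on the telobox, whose 8 bases are equal by construction. Of 40 bases, the *CYP71A12* and *CYP71A18* windows are equal at 27, *CYP71A18* and *CYP71A27* at 23 and *CYP71A12* and *CYP71A27* at 18, and the windows of all other pairs at 5 to 18. The 3 genes belong to 1 subfamily, so their matches may not be independent. *CYP71A12* makes intermediates of camalexin and of indole carbonyl nitriles, and *CYP86A8* (LACERATA) is a cuticular fatty acid ω-hydroxylase. Neither motif is within 250 bases of the 2 genes that rose most and the 2 that fell most without CLF. The windows of *CYP86A1* (highest rise) and *CYP87A2* (largest fall) are given whole for comparison, all in lower case because they hold no match:
CYP87A2 (chr1:4341959-4342208, plus strand, TAIR10.1): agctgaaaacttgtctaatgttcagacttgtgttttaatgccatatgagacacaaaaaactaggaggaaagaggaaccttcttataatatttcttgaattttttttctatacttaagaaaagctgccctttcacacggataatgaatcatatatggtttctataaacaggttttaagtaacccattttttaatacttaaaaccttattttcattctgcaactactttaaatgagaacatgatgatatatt
CYP86A1 (chr5:23768112-23768361, minus strand, TAIR10.1): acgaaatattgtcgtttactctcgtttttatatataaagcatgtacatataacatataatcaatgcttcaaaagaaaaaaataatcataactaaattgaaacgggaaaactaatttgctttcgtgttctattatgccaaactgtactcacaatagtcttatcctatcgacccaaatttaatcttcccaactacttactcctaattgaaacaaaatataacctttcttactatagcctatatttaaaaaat

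They are 72.8% and 71.2% A and T, and the median was 69.6% over the marked P450 genes and 68.8% over all protein-coding genes. The gene that gained most and the gene that lost most therefore have upstream sequence of like composition.

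Without CLF, P450 genes moved both ways, and gains outnumbered losses. Per-gene levels were compared with limma on log2(RPM + 1) over the 32062 genes with enough reads, all 8 ChIP libraries in 1 fit. A gene was called at a Benjamini-Hochberg adjusted p under 0.05 together with more than 2-fold. Of the P450 genes 214 were tested, all but *CYP705A6*, which had too few reads, and the counts below are over the 130 in a region of any genotype. In *clf-29* against Col, 30 of the 130 (23.1%) were higher, and 14.2% of all 10337 tested genes in regions were. Only 3 (2.31%) were lower, against 10.4% of all. The median change was 0.50 on the log2 scale for P450 genes in regions and 0.26 for all genes in regions, while all tested genes, most of them unmarked, had a median of −0.74. After TMM scaling on the genes in Col regions those medians became 0.16 and −0.08, 6 P450 genes remained higher, against 2.59% of all genes in regions, and 5 were lower, against 17.3%. With median-of-ratios factors 83 were higher, against 50.2% of all. The 6 were *CYP79B2*, *CYP79B3*, *CYP82C2*, *CYP86A1*, *CYP89A2* and *CYP94B2*, and *CYP71A19* and *CYP71B11* joined the 3 that were lower. That the P450 median stood above that of all marked genes held under both scalings, and the number of gains did not.

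The 3 largest gains were those of *CYP86A1*, *CYP79B2* and *CYP79B3*. *CYP86A1* (chr5:23765791-23768111, minus strand) had 62.4 and 60.6 RPM per kb in Col, 179 and 177 in *clf-29*, 84.9 and 89.8 in *brm-1* and 166 and 152 in the double mutant. Its level in every library with *clf-29* was above every library without it, and the change in *clf-29* was 1.53 ± 0.07 on the log2 scale (SE, limma adjusted p = 2.72e-12). *CYP79B2* (chr4:18525042-18527602, plus strand), which converts tryptophan to indole-3-acetaldoxime, had 44.0 and 44.9 in Col, 55.1 and 54.6 in *brm-1*, 127 and 123 in *clf-29* and 119.5 and 117 in the double mutant. It rose by 1.48 ± 0.08 (adjusted p = 3.52e-12). Its paralog *CYP79B3* carries out the same step and had 47.2 and 38.0 in Col, 67.5 and 66.2 in *brm-1*, 121 and 111 in *clf-29* and 128 and 111 in the double mutant. The Col and *clf-29* libraries of this gene, too, do not overlap, and its change was 1.45 ± 0.09 (adjusted p = 3.64e-11).

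*CYP94B2* followed with 41.8 and 42.5 RPM per kb in Col and 126 and 103 in *clf-29*, a log2 change of 1.42 ± 0.10 (limma adjusted p = 2.31e-10). *CYP82C2*, which hydroxylates an indole carbonyl nitrile in pathogen defence, had 53.8 and 50.1 in Col and 139 and 133 in *clf-29*. The next in size, *CYP89A2*, had 24.9 and 22.6 in Col and 68.8 and 56.3 in *clf-29*, so that a gene with a moderate level in Col reached the level of the highest Col genes. Of the 30, *CYP77B1*, *CYP76G1*, *CYP94B3*, *CYP71B21*, *CYP89A7*, *CYP71B22*, *CYP86A8* and *CYP78A8* rose by 1.21 to 1.34 on the log2 scale. *CYP71B21* went from 64.0 and 67.2 in Col to 171 and 161 in *clf-29*, and *CYP78A5* from 68.9 and 62.2 to 156 and 145, so the genes with the highest Col levels were among those that rose.

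The 30 gains were spread over 14 families. CYP78 and CYP94 each held 4, CYP79, CYP82 and CYP81 each 3, CYP71, CYP86, CYP76 and CYP89 each 2, and CYP706, CYP710, CYP77, CYP83 and CYP703 each 1. CYP71, with the most genes, thus held only 2 of the gains, *CYP71B21* and *CYP71B22*, which are neighbours on chromosome 3.

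The 3 losses were *CYP87A2*, *CYP71A28* and *CYP702A1*, all in regions of Col and *brm-1* alone, where they are high. *CYP87A2* (chr1:4342209-4344875, plus strand) had 17.3 and 15.4 RPM per kb in Col, 21.6 and 21.0 in *brm-1*, 3.46 and 3.20 in *clf-29* and 4.26 and 5.15 in the double mutant. It fell by 2.17 on the log2 scale (SE 0.20, limma adjusted p = 4.67e-09) and ended near the level of unmarked P450 genes. *CYP71A28* (chr4:10928948-10931277, minus strand) had 37.3 and 39.4 in Col, 46.1 and 45.9 in *brm-1*, 9.91 and 8.53 in *clf-29* and 7.84 and 9.73 in the double mutant, a change of −2.01 ± 0.15 (adjusted p = 3.43e-10). *CYP702A1* (chr1:24421835-24424069, minus strand) had 21.5 and 22.5 in Col, 24.0 and 18.8 in *brm-1*, 8.27 and 8.90 in *clf-29* and 8.17 and 9.43 in the double mutant, a change of −1.32 ± 0.18 (adjusted p = 2.58e-06). In all 3 the libraries with *clf-29* lay below every library without it. *CYP71A27*, the neighbour of *CYP71A28*, had 32.2 and 39.0 in Col and 23.3 and 24.8 in *clf-29*, a log2 change of −0.55 ± 0.12 that passed the adjusted p but not 2-fold. Of the 84 tested P450 genes in no region, 21 were lower in *clf-29*, against 44.5% of all genes in no region, and none was higher.

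The same loss of CLF was compared in the *brm-1* background. This contrast uses other libraries than the first, but both come from 1 fit with a shared estimate of the spread. In the double mutant against *brm-1*, 7 of the 130 P450 genes were higher, against 2.91% of all genes in regions, and 4 were lower, against 10.6%. The 7 were *CYP89A9*, *CYP81D1*, *CYP79B2*, *CYP78A9*, *CYP94D1*, *CYP94C1* and *CYP81D11*, with log2 changes of 1.15 to 1.01. *CYP89A9* was in a region of the double mutant alone, where it is high, and entered the 130 through it. *CYP79B2*, *CYP94C1* and *CYP94D1* were also among the 30 gains in *clf-29* against Col, which is 42.9% of the 7 and 10% of the 30. For all genes in regions, the overlap between these comparisons was not counted, for gains or for losses. The 4 lower genes were *CYP71A28* (−2.34 ± 0.15, limma adjusted p = 7.16e-10), *CYP87A2* (−2.10 ± 0.20, adjusted p = 5.69e-08), *CYP702A1* (−1.23 ± 0.18) and *CYP71A19* (−1.01 ± 0.12). All 3 genes that fell in *clf-29* thus fell in both comparisons, and *CYP71A19*, at 37.0 and 38.7 RPM per kb in *brm-1* and 17.9 and 19.5 in the double mutant, had a log2 change of −0.81 ± 0.12 in *clf-29*. The number higher was 4 in place of 7 without *brm-1* replicate 2 or without *brm-1 clf-29* replicate 1. It was 2, *CYP81D1* and *CYP89A9*, after TMM scaling, against 1.60% of all genes in regions, with the same 4 lower, against 12.6%. Both higher genes lost their call once the background of each library, its input scaled to the reads outside regions, was subtracted. Their *brm-1* libraries, at 7.56 and 7.33 and at 4.51 and 4.62 RPM per kb, were near or below the input median of 7.43.

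**Figure D2:**
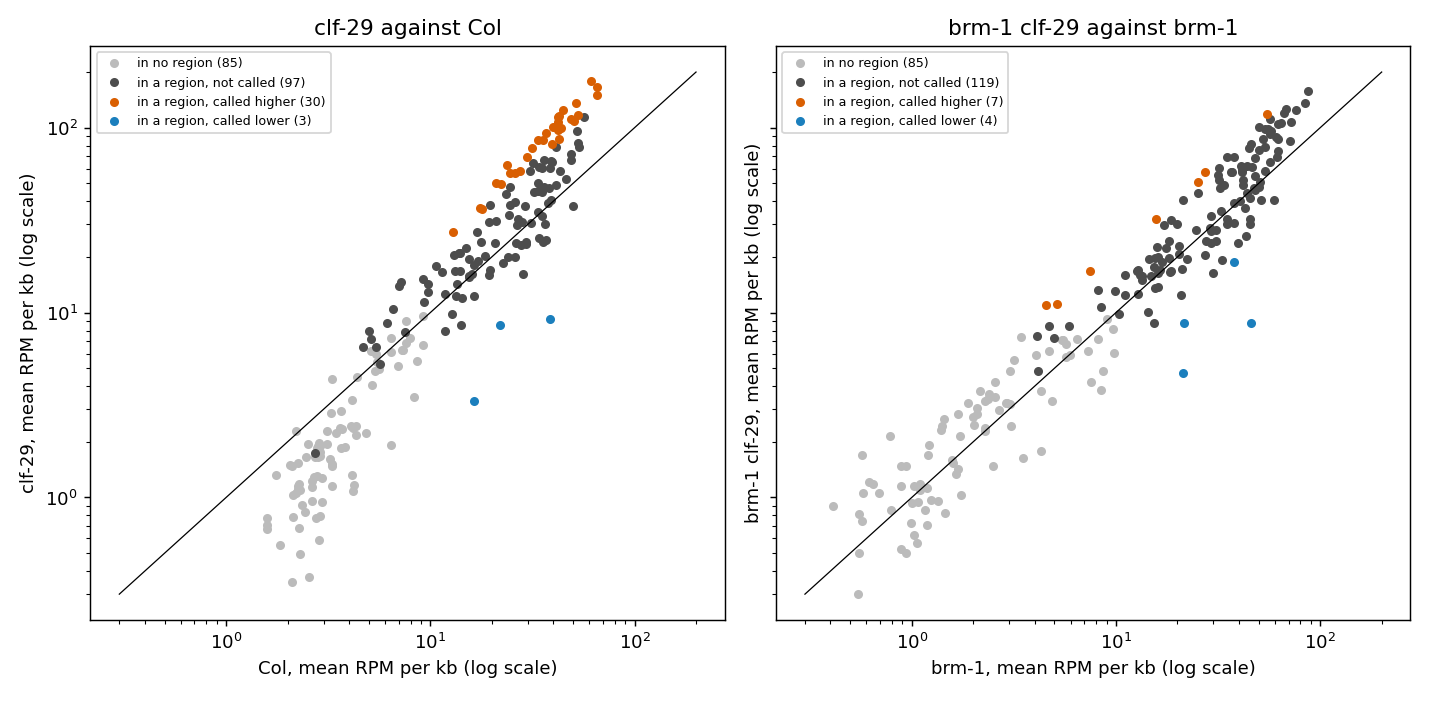
H3K27me3 of P450 genes with and without CLF. Each point is a P450 gene, placed by its mean RPM per kb in Col and *clf-29* (left) or in *brm-1* and *brm-1 clf-29* (right) on log axes, with a line of equal level, and the 85 genes in no region are in grey. On the left 30 genes are called higher (orange) and 3 lower (blue), and on the right 7 and 4.

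On loss of BRM alone no P450 gene passed both thresholds. In *brm-1* against Col, limma called 0 of the 130 P450 genes higher and 0 lower, against 0.929% and 1.15% of all genes in regions. At an unadjusted p under 0.05 there were 63, of which 62 were higher in *brm-1*. By the adjusted p alone, without the 2-fold rule, 56 were higher, against 29.4% of all genes in regions, and 0 lower, against 3.02%. The median change was 0.26 on the log2 scale, next to 0.24 over all genes in regions, and 0.02 and 0.00 after TMM scaling. The count rested on the scaling: with median-of-ratios factors over all tested genes 98 of the 130 were called higher, against 66.7% of all genes in regions, and with scaling to the reads on genes outside all regions 118 were, against 83.1%. Without Col replicate 1 a single P450 gene was called higher. Of the 84 unmarked P450 genes, 25 were called lower, against 56.2% of all genes in no region. Reads on genes outside all regions, the background of a library, made up 203362 and 207170 RPM in Col and 110919 and 78934 RPM in *brm-1*, and their part in these calls was not tested.

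Among the P450 genes in a region of any genotype, the largest change in *brm-1* was that of *CYP84A4*, a P450 of arabidopyrone synthesis. This gene was in a region in every mutant but not in Col. It was thus counted only through genotypes where it is high, so little can be read from its rank against Col. It had 11.0 and 7.29 RPM per kb in Col, 17.6 and 16.7 in *brm-1*, 18.4 and 12.2 in *clf-29* and 31.7 and 27.9 in the double mutant. Its level was lowest in Col and highest in the double mutant, and the change in *brm-1* was 0.90 ± 0.21 (limma adjusted p = 0.00255), short of 2-fold. In *brm-1 clf-29* against *clf-29* it was 0.97 ± 0.21 (adjusted p = 0.021), also short of it.

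Removing BRM where CLF was already absent raised 2 P450 genes of the CYP81 family. In *brm-1 clf-29* against *clf-29*, these were 2 of 130, against 0.764% of all genes in regions, and 0 were lower, against 0.155%. *CYP81H1* was in a region of the double mutant alone and was counted only through the genotype where it is high, so little can be read from this count. At an unadjusted p under 0.05 limma gave 20, of which 13 were higher. *CYP81H1* had 2.16 and 1.33 RPM per kb in *clf-29* and 5.32 and 4.38 in the double mutant, a log2 change of 1.35 ± 0.29 (adjusted p = 0.0227), and 3.07 and 2.38 in Col and 4.16 and 4.10 in *brm-1*. It stayed below the input level in all 4 genotypes. *CYP81D1* (chr5:14253673-14256284, minus strand) had 4.19 and 5.83 in Col, 7.56 and 7.33 in *brm-1*, 8.25 and 7.61 in *clf-29* and 18.0 and 15.5 in the double mutant, a change of 1.04 ± 0.21 (adjusted p = 0.0124). Its double mutant libraries lay well above all others. Both calls were lost without *clf-29* replicate 2, without either *brm-1 clf-29* replicate, or once the background of each library, its input scaled to the reads outside regions, was subtracted (0 called in each). *CYP81D4*, which lies in the same array as *CYP81H1* and in no region, was higher as well, at 1.42 and 0.77 in *clf-29* and 4.98 and 6.13 in the double mutant.

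The effect of *brm-1* in *clf-29* was lower than its effect in Col for 17 of the 130 P450 genes (13.1%), by the interaction contrast of limma at an adjusted p under 0.05, against 8.03% of all genes in regions. For 0 was it higher, against 0.464% of all, and at an unadjusted p under 0.05 limma gave 46, of which 2 were higher. *CYP710A4*, a sterol C-22 desaturase, had 44.6 and 42.5 RPM per kb in Col and 62.6 and 61.9 in *brm-1*, but 114 and 84.9 in *clf-29* and 89.7 and 83.5 in the double mutant. *brm-1* thus went with a higher level in the presence of CLF and not in its absence, and the difference of the effects was −0.70 ± 0.16 (adjusted p = 0.0226). *CYP707A4*, an abscisic acid 8′-hydroxylase, had 37.8 and 39.2 in Col, 44.7 and 43.2 in *brm-1*, 63.5 and 57.5 in *clf-29* and 43.7 and 45.2 in the double mutant, with a difference of −0.63 ± 0.13 (adjusted p = 0.017). This gene was higher in *clf-29* than in all other libraries. These calls rest on few libraries. Nearly all were lost without *brm-1* replicate 2, without either Col replicate or without either *brm-1 clf-29* replicate. Over all genes in regions, nearly all lower calls were lost in the same fits. After TMM scaling 5 of the 17 remained, *CYP707A4*, *CYP710A4*, *CYP71B21*, *CYP79B3* and *CYP86A1*.

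By function, genes of glucosinolate and camalexin synthesis were nearly all marked. The function lists were made from textbook roles, with earlier results of these data known. They hold only members that carry a CYP symbol in TAIR10. Of 13 such genes, 12 were in regions of Col and of each mutant, all except *CYP83B1*, which oxidises aldoximes for indole glucosinolates and had 3.43 and 3.82 RPM per kb in Col. *CYP83A1*, its counterpart for aliphatic glucosinolates, had 26.8 and 28.5 in Col, so these close relatives lie on opposite sides of the region threshold. Over all genes in regions, 14.2% were higher and 10.4% lower in *clf-29* against Col. Of the 12 marked genes, 8 were called higher and 0 lower, with a median log2 change of 1.05. They were *CYP79B2*, *CYP79B3*, *CYP79F1*, *CYP83A1*, *CYP81F2*, *CYP81F3*, *CYP81F4* and *CYP82C2*. The last, *CYP82C2*, was put on this list although it acts on an indole carbonyl nitrile. *CYP79F1* and *CYP79F2* lie side by side and act on chain-elongated methionine. *CYP79F1* had 42.6 and 36.2 in Col and 81.5 and 81.7 in *clf-29* (1.05 ± 0.09), and *CYP79F2* had 48.2 and 49.6 and then 75.7 and 69.0 (0.56 ± 0.09), which passed the adjusted p and not 2-fold. After TMM scaling *CYP79B2*, *CYP79B3* and *CYP82C2* were still called.

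In the CYP78A family, 5 of 6 genes were in regions of each genotype and 4 of these, *CYP78A5*, *CYP78A7*, *CYP78A8* and *CYP78A10*, rose in *clf-29*, with a list median of 1.19 on the log2 scale. Over all genes in regions 14.2% rose, with a median of 0.26. *CYP78A8* had 28.9 and 30.7 RPM per kb in Col, 33.4 and 30.2 in *brm-1*, 72.2 and 66.6 in *clf-29* and 61.4 and 60.3 in the double mutant. *CYP78A9*, a gene of fruit and seed growth, behaved otherwise, with 4.71 and 6.17 in Col, 6.38 and 3.95 in *brm-1*, 6.63 and 6.34 in *clf-29* and 11.3 and 11.1 in the double mutant, where it was called against *brm-1* alone (1.08 ± 0.26). *CYP78A6* was in no region and had 3.65 and 2.94 in Col. The 6 paralogs therefore covered the range from unmarked to the highest level of Col. None of the 4 rises of this family passed 2-fold after TMM scaling.

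Among the genes of cutin, suberin, wax and pollen wall, 8 of 15 were in regions of each genotype, with a median change of 0.93 in *clf-29*. Against 14.2% of all genes in regions, 3 of these 8 rose. These were *CYP86A1*, *CYP86A8* and *CYP703A2*, which hydroxylates lauric acid for sporopollenin. Of the 3, only *CYP86A1* was still called after TMM scaling. *CYP703A2* had 12.7 and 13.2 RPM per kb in Col, 14.5 and 10.7 in *brm-1*, 28.1 and 26.1 in *clf-29* and 17.8 and 15.9 in the double mutant, so that its *clf-29* libraries stood above the rest. *CYP96A15*, the midchain alkane hydroxylase of stem wax, had 42.8 and 39.4 in Col and 83.8 and 74.1 in *clf-29* (0.93 ± 0.10), just short of 2-fold. The other 7 genes of this list, among them *CYP86A4*, *CYP77A6* and *CYP704B1*, were in no region.

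Hormone genes showed mixed marking. All 3 jasmonate turnover genes were in regions of every genotype, and *CYP94B3* and *CYP94C1*, which hydroxylate and carboxylate jasmonoyl-isoleucine, rose in *clf-29*. Over all genes in regions 14.2% rose. *CYP94B3* had 37.6 and 36.0 RPM per kb in Col and 97.8 and 89.2 in *clf-29* (1.33 ± 0.10), and *CYP94C1* had 16.5 and 19.2 in Col, 30.01 and 20.5 in *brm-1*, 39.6 and 33.1 in *clf-29* and 52.5 and 49.8 in the double mutant. *CYP94C1* was highest in the double mutant. After TMM scaling the rises of *CYP94B3* and *CYP94C1* in *clf-29* were 0.98 and 0.65 on the log2 scale, short of 2-fold. The cytokinin hydroxylases *CYP735A1* and *CYP735A2* were marked and did not pass 2-fold: *CYP735A1* had 35.4 and 31.7 in Col and 36.5 and 33.2 in *clf-29*, a log2 change of 0.06 ± 0.09 (limma adjusted p = 0.608). *CYP711A1*, of strigolactone synthesis, was unmarked. Of the 4 abscisic acid hydroxylases, *CYP707A2* and *CYP707A4* were in regions and *CYP707A1* and *CYP707A3* in none. Of 3 gibberellin genes, *CYP714A1* and *CYP714A2* were marked and *CYP88A3* was not, and both brassinosteroid genes covered, *CYP90D1* and *CYP72C1*, were marked. None of the last 3 lists held a gene called in a comparison of 2 genotypes while in a region.

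The phenylpropanoid list had 0 of 4 in Col regions and 1 in each mutant, *CYP84A4*, while *CYP98A3*, *CYP98A8* and *CYP98A9*, which 3′-hydroxylate phenolic esters and amides, were in none. Neither of the carotenoid genes *CYP97A3* and *CYP97B3* was in a region, nor were the sterol demethylase *CYP51G1* and *CYP710A1*. The other 3 CYP710A genes were, and *CYP710A4* alone of the 5 sterol genes rose in *clf-29*, by less than 2-fold after TMM scaling. Marking thus differed within this subfamily, from *CYP710A1* in no region to *CYP710A4* at 44.6 and 42.5 RPM per kb. No gene of any of the 11 lists that was in a region was called lower in any comparison of 2 genotypes. In *clf-29* against Col, 10.4% of all genes in regions and 2.31% of P450 genes in regions were lower.

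Neighbouring P450 genes did not always share the mark. Members at most 10 kb apart, of the same or of different families, formed 39 arrays with 129 genes. Of these genes 59 (45.7%) were in Col regions, and 55 of the other 86 (64.0%) were. Some arrays join different families, such as *CYP77B1* with *CYP71A18*, or *CYP81F3* and *CYP81F4* with the unmarked *CYP91A2*. Mixed arrays and divided pairs are thus not all made of tandem copies. In Col, 15 arrays were wholly in regions, 12 wholly out and 12 mixed, and of 90 pairs of neighbours 29 were both in, 43 both out and 18 divided. The number of divided pairs was 21 in *brm-1*, 22 in *clf-29* and 23 in *brm-1 clf-29*. The 8 genes of the *CYP72A7* to *CYP72A15* array and the 7 genes from *CYP705A15* to *CYP705A23* were in no region of any genotype. In the array of 6 genes from *CYP71A26* to *CYP71A21*, 5 were marked in every genotype, and *CYP71A21* at its end had 4.95 and 3.48 RPM per kb in Col beside 30.6 and 28.2 for *CYP71A22*. In the array of 9 CYP71B genes, *CYP71B21* (64.0 and 67.2) and *CYP71B22* (35.0 and 36.5) lay between *CYP71B20* (4.47 and 4.14) and *CYP71B23* (2.68 and 3.89). The marked and unmarked neighbours there do not overlap in any library. In the *CYP76C4* to *CYP76C3* array of 4, 0 genes were in regions in Col, 2 in *brm-1*, 1 in *clf-29* and 3 in the double mutant.

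**Figure D3:**
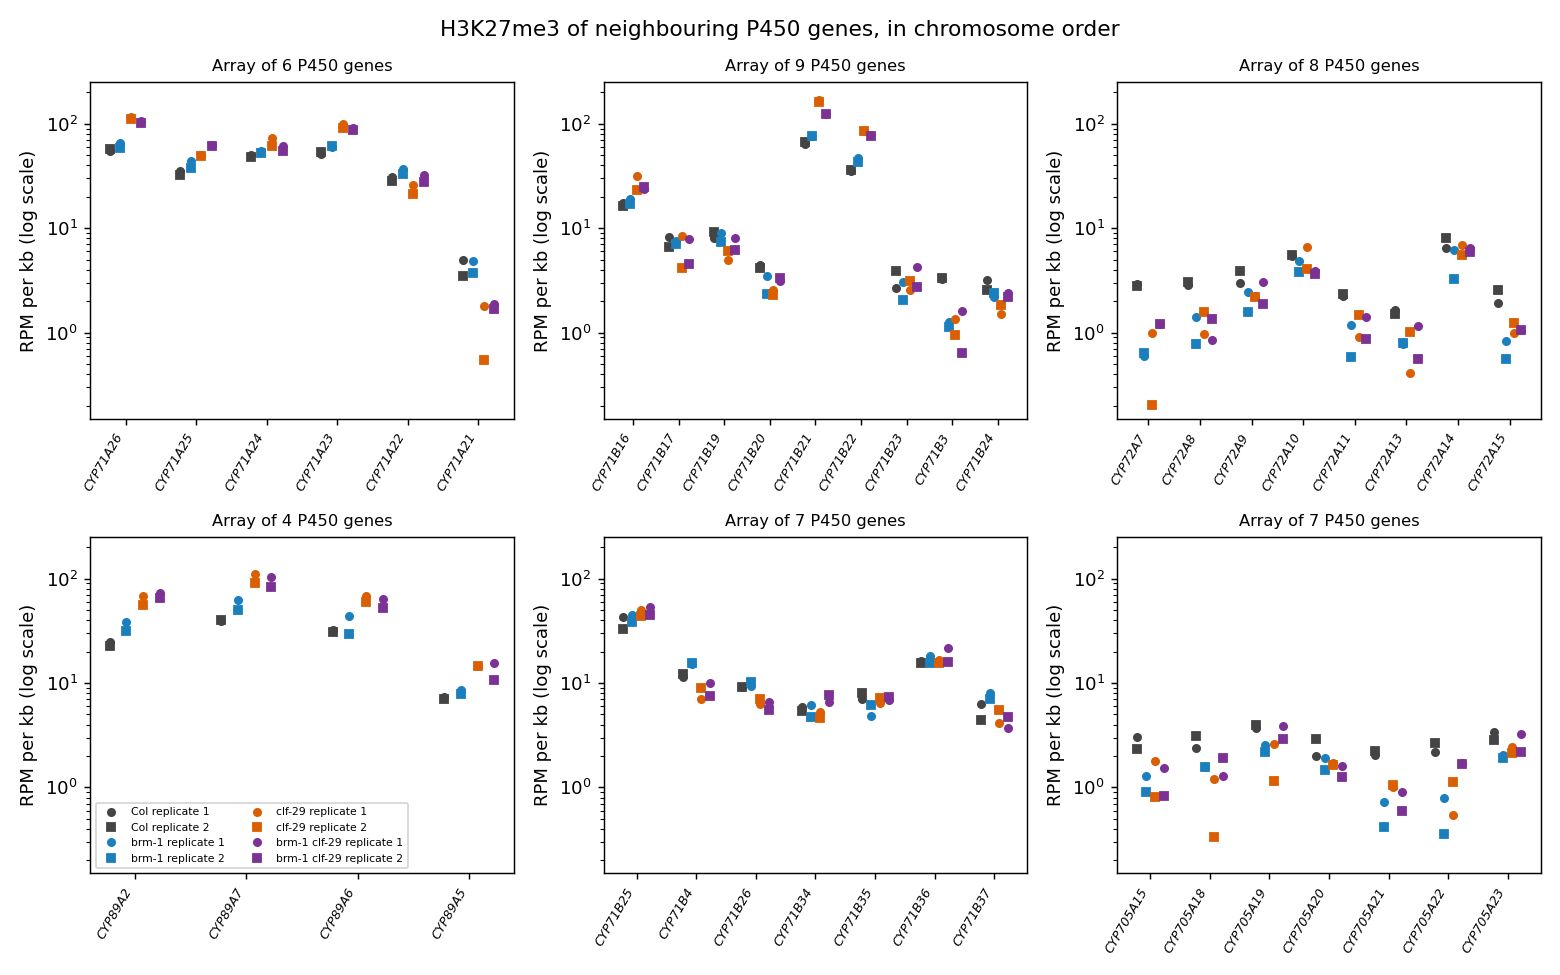
H3K27me3 level along 6 tandem arrays of P450 genes, in RPM per kb on a log axis, with the genes of each array in chromosomal order. Points are single ChIP libraries, coloured by genotype. *CYP71B21* and *CYP71B22* lie above their neighbours in every library, the 8 CYP72A genes are in no region, and a library at 0 has no point on this axis.

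The position of the mark along the genes was examined after the levels had been seen. For the 106 P450 genes in regions of all 4 genotypes, the mean level peaked in the first part of the gene body. At 450 bp after the annotated start it was 40.2 and 38.1 RPM per kb in Col, 52.4 and 50.4 in *brm-1*, 81.4 and 70.5 in *clf-29* and 77.97 and 70.5 in the double mutant. At 2050 bp the corresponding values were 19.4 and 20.1, 22.9 and 24.1, 23.2 and 22.5, and 22.6 and 23.7, and at 550 bp before the start 14.4 and 14.1, 19.1 and 21.1, 12.6 and 15.2, and 16.3 and 17.0. The libraries with *clf-29* thus stood apart near the start and overlapped those of *brm-1* at 2050 bp. The median length of the 215 P450 genes is 2054 bp, so this distance lies past the end of many of them. Inputs were level, at 7.06 to 8.21 in these 3 bins.

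**Figure D4:**
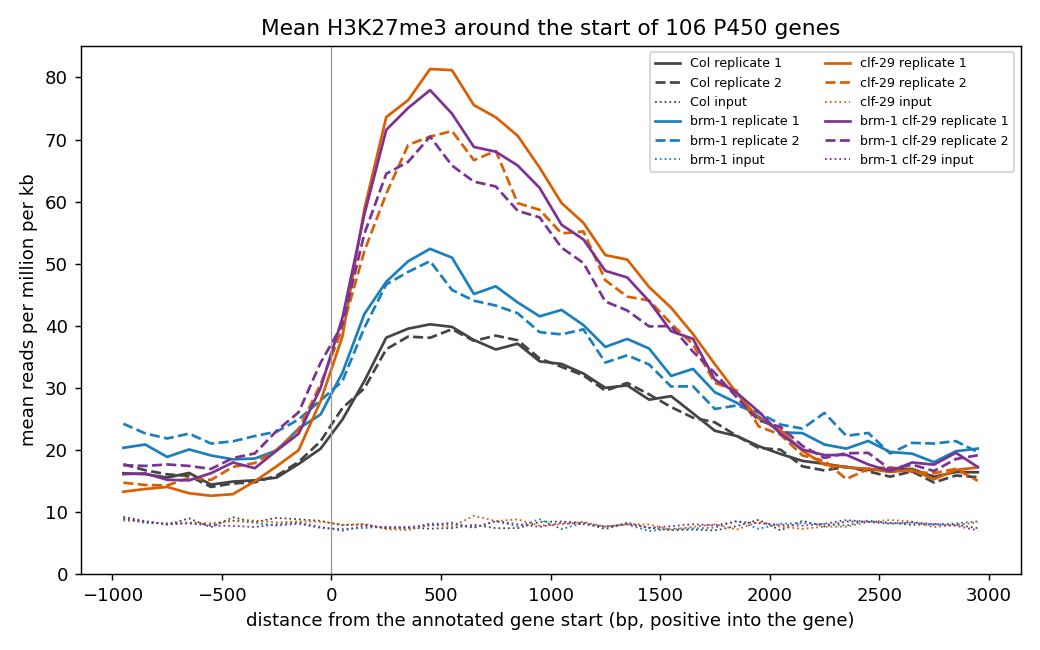
Mean H3K27me3 of the 106 P450 genes in regions of all 4 genotypes around their annotated start, in RPM per kb and bins of 100 bp, one line per library. At 450 bp after the start the 4 libraries with *clf-29* lie between 70.5 and 81.4 and the Col libraries at 40.2 and 38.1. The inputs are flat.

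Each gene was then divided at its midpoint and the log2 ratio of its 5′ to its 3′ reads compared with limma, over the 7031 genes in regions of all 4 genotypes, with a call at an adjusted p under 0.05. The median ratio of the 106 P450 genes was 0.42 and 0.32 in Col, 0.37 and 0.39 in *brm-1*, 0.75 and 0.70 in *clf-29* and 0.79 and 0.67 in the double mutant. The medians of all 7031 genes were 0.16 to 0.18 in Col and 0.28 in *clf-29*, and the P450 inputs lay between 0 and 0.12. In *clf-29* against Col, 32 of the 106 P450 genes (30.2%) shifted towards the 5′ side, against 12.7% of all, and 4 towards the 3′ side, against 4.34%. In the double mutant against *brm-1*, 18 shifted towards the 5′ side, against 6.66% of all, and 3 towards the 3′ side, against 2.42%. Of these 18, 15 (83.3%) were among the 32, which is 46.9% of the 32. The 2 comparisons contrast different libraries but come from 1 fit with a shared estimate of the spread. The overlap over all 7031 genes was not counted. With *brm-1* against Col 1 gene shifted to the 5′ side (*CYP86A2*), against 1.55%, and 0 to the 3′ side, against 0.313%, and with *brm-1 clf-29* against *clf-29* 0 shifted either way, against 0.0284% and 0.0569%. Fewer than the 32 were called without Col replicate 1. Fewer than the 18 were called without *brm-1* replicate 1 or without *brm-1 clf-29* replicate 1. The share of all genes called fell in these fits too. After the background was subtracted, 25 of the 32 were still called, against 8.69% of all genes.

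The CYP71A and CYP702A families held the largest shifts. *CYP71A20* (chr4:7750305-7753210, plus strand) had 46.5 and 41.7 RPM on its 5′ side in Col and 45.8 and 48.3 in *clf-29*, but 23.8 and 19.9 on its 3′ side in Col and 7.70 and 6.16 in *clf-29*. The libraries of both genotypes overlap on the 5′ side and not on the 3′ side, and the log2 ratio rose by 1.62 ± 0.24 (limma adjusted p = 4.5e-05). *CYP702A8* had 35.6 and 37.4 RPM on the 5′ side in Col and 42.0 and 37.4 in *clf-29*, and 22.2 and 15.6 on the 3′ side in Col and 7.70 and 5.68 in *clf-29*. It shifted in the same way by 1.48 ± 0.26 (adjusted p = 0.000333), and by 1.504 ± 0.26 in the *brm-1* background. *CYP71A14* followed with 1.44 ± 0.31 (adjusted p = 0.00195). *CYP71A12*, *CYP71A13*, *CYP71A18*, *CYP71A22*, *CYP71A25*, *CYP71A26* and *CYP71A27* were also among the 32, which include 3 of the 6 CYP71A genes of the array above. The 4 genes with the opposite shift were *CYP703A2*, *CYP714A2*, *CYP722A1* and *CYP702A2*, with log2 changes of −1.22 to −0.62, and 1 of them was called after that subtraction. These genes were chosen for naming after their values were seen.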

How the data were processed

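The authors mapped the reads of each library to TAIR10 with Bowtie and kept perfectly and uniquely mapped ones, and the submitters' notes list Bowtie 0.12.7 and SICER 1.1. The deposited files list mapped reads, each with its position and strand, without counts. Here 1 read per position and strand was kept, its 5′ end moved by 75 bp, and reads were counted per gene and scaled to 1000000 kept reads (RPM). Genes that had 10 reads or more in 2 or more ChIP libraries were fitted on log2(RPM + 1) with limma 3.58.1 (lmFit, eBayes with trend) in R 4.3.3, a scale that understates changes of low genes. P-values rest on the spread between replicate libraries of the same genotype, pooled over the 4 genotypes and drawn towards that of other genes of like level. On simulated reads for *brm-1* against Col (32062 genes, 200 changed 3-fold), 99% of raised and 92% of lowered genes were found, with 7 false calls. All simulated libraries were drawn from the Col levels, and only well-covered genes were changed. The difference in background between Col and the mutants was not simulated, so these rates do not bear on the choice of scaling.

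Regions were modelled on SICER: windows of 200 bp passed at a Poisson p under 0.2, gaps up to 600 bp between them were bridged, and an exact test of ChIP and input counts had to reach an adjusted p under 0.01. The single input of each genotype has no replicate. Sequences come from TAIR10.1.

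Genes were named by rule: the 10 highest in Col, the highest of each other genotype, called genes in regions (12 of the largest where more, with at least 30 reads in each library of the higher genotype) and list members. Others, in the accounts of region patterns, arrays and 5′ sides, were named after their values were seen. The members and the function lists were chosen with earlier results of these data known. Alternatives covered duplicates, 4 scalings, pseudocounts of 0.25 and 4, no filter, limma-voom, no shift, other thresholds, the replicate block and leaving out each replicate.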

Additional observations from a re-analysis of the deposited data

Results flagged for a closer look

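For 12 P450 genes named by rule, the effect of *brm-1* on H3K27me3 differed between the *clf-29* and the Col background by the interaction contrast of limma at an adjusted p under 0.05. The effect in *clf-29* minus that in Col, on the log2 scale, was −0.70 for *CYP710A4*, −0.67 for *CYP86A1*, −0.63 for *CYP707A4*, −0.62 for *CYP71B21* and −0.62 for *CYP79B3*. It was −0.61 for *CYP89A7*, −0.57 for *CYP76C5*, −0.52 for *CYP78A5*, −0.51 for *CYP76G1*, −0.50 for *CYP82C2*, −0.47 for *CYP71B22* and −0.47 for *CYP77B1*. All 12 values are negative, as is the median of −0.22 over all genes in regions, which becomes 0.03 after TMM scaling on the genes in Col regions. With that scaling *CYP710A4*, *CYP86A1*, *CYP707A4*, *CYP71B21* and *CYP79B3* were still called.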

How the results depend on the processing

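The number of P450 genes in regions stayed within 1.5 times its value in each genotype under every alternative. No gene named for a call had its log2 change turn sign, and counts of calls have no direction to turn. Medians over all genes in regions did turn sign with TMM scaling. They went from 0.26 to −0.08 in *clf-29* against Col and from −0.22 to 0.03 for the interaction. Counts of calls moved most with the scaling, and the cause was not tested. With median-of-ratios factors, 98 genes were higher in *brm-1* against Col, 83 in *clf-29* against Col, and 110 had a lower *brm-1* effect in *clf-29* (the interaction), beside 66.7%, 50.2% and 69.0% of all genes in regions. Scaled to genes outside all regions, these were 118, 99 and 116, beside 83.1%, 59.8% and 75.4%. With TMM on the genes in Col regions, *clf-29* against Col gave 6 higher and 5 lower, beside 2.59% and 17.3% of all. Under it *brm-1 clf-29* against *brm-1* gave 2 higher, beside 1.60%. The interaction gave 2 higher and 5 lower, beside 2.73% and 0.735%. With the background taken off, *brm-1* against Col gave 1 higher, beside 2.94% of all genes in regions. *brm-1 clf-29* against *clf-29* then gave 0, beside 0.213% higher and 0.0387% lower, and the interaction 8 lower, beside 3.56%. Without the 2-fold rule, 56 were higher in *brm-1* against Col, beside 29.4% of all. Then 75 were higher and 12 lower in *clf-29* against Col, and 51 higher and 14 lower in the double mutant against *brm-1*. A further 3 were lower in *brm-1 clf-29* against *clf-29*. Without this rule, the share of all genes was counted for *brm-1* against Col alone. A pseudocount of 4 gave 3 higher in the double mutant against *brm-1*, beside 1.69%, and 1 in *brm-1 clf-29* against *clf-29*, beside 0.532%. A pseudocount of 0.25 gave 10 lower interactions, beside 3.89%. The interaction gave 8 lower with all reads counted, beside 4.23%, 26 with limma-voom, beside 11.6%, and 1 at an adjusted p under 0.01.

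Leaving out 1 replicate gave 0 to 1 higher in *brm-1* against Col, 4 to 10 higher in the double mutant against *brm-1*, 0 to 3 higher in *brm-1 clf-29* against *clf-29*, and 0 to 1 higher and 0 to 16 lower interactions. Where it left a genotype with 1 library, that library was assumed to vary like the others. Lower interactions over all genes in regions also became fewer in most of these fits. *clf-29* against Col stayed at 23 to 36 higher and 3 lower.

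For the 5′ to 3′ ratio, chosen after seeing the data, *brm-1* against Col gave 0 higher with a pseudocount of 4 or the background taken off, and 0 to 3 on leaving out 1 replicate. *clf-29* against Col gave 1 lower with the background taken off, and 20 to 31 higher and 1 to 4 lower on leaving out 1 replicate. *brm-1 clf-29* against *brm-1* gave 8 to 21 higher and 1 to 3 lower, and *brm-1 clf-29* against *clf-29* 0 to 1 lower.

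Nothing in the labels or methods says that same-numbered replicates were paired, so they were treated as unpaired. Their deviations from the genotype means correlated at −0.01 to 0.11 over all genes. Over genes in regions the correlations were 0.01 to 0.04 between Col and a mutant and 0.22 to 0.25 between mutants. Same-numbered mutant libraries thus varied together to a degree that the main fit did not model. With the replicate number as a block, the interaction gave 1 higher and 32 lower, beside 1.32% and 17.6% of all genes in regions. The 5′ to 3′ ratio then gave 2 higher and 1 lower in *brm-1* against Col, beside 1.76% and 0.398% of all. It gave 1 lower in *brm-1 clf-29* against *clf-29*, beside 0.0996%. Other counts stayed within 1.5 times under the block. With 2 libraries a genotype, genes near 10 reads can show only large changes.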
